A study of Homo sapiens with 30 samples.

Results

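The genes described here are 8 mRNAs of simple (single-layered) epithelium, chosen by symbol: the keratins KRT8, KRT18, KRT7 and KRT19, the tight junction claudins CLDN3 and CLDN4, the epithelial cell adhesion molecule EPCAM and E-cadherin (CDH1). All 8 were listed among the 23261 genes of the clone count table and among the 23262 genes of each time-course table. They were followed in Rh30, an established alveolar rhabdomyosarcoma line, a childhood tumour of muscle lineage that carries the fusion transcription factor PAX3-FOXO1. They were chosen because their levels were already known to differ between these samples, so their own values are given as a description with no test.

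RNA sequencing covered 30 samples in 15 groups of 2. In the clone comparison the groups were the Rh30 PAX3-FOXO1-FKBP clones 4, 10, 11 and 12, each a single clone whose fusion carries the FKBP degradation tag, and parental Rh30. All 10 of these libraries carry the treatment label DMSO, none received dTAG, and they are called untreated here. In the time course the Rh30 PAX3-FOXO1-FKBP line was given DMSO or 500 nM dTAG, a small molecule that directs FKBP-tagged proteins to degradation, for 2, 6, 24 or 72 h. The Rh30 FOXO1-FKBP line, in which FOXO1 rather than the fusion bears the tag, received the same treatments. No label ties the treated PAX3-FOXO1-FKBP cells to one of the 4 clones.

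Keratins are the intermediate filament proteins of epithelia, and a filament needs a type II keratin paired with a type I keratin. KRT8 (type II) and KRT18 (type I) are the obligate pair of simple epithelia, KRT7 (type II) and KRT19 (type I) are added in ducts and glands, and an unpaired keratin is unstable as protein. Claudins seal the tight junction, EPCAM is a membrane glycoprotein of epithelial cells, and E-cadherin is the adhesion molecule of the adherens junction. Skeletal muscle cells and rhabdomyosarcomas mostly build their cytoskeleton from desmin, vimentin and nestin instead, although keratin staining of rhabdomyosarcoma is known.

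RefSeq promoter windows (GRCh38.p14, 250 bases before to 50 after the annotated start) were found for 3 of the 8 genes, and are shown so that KRT8 and CLDN4, whose levels differed between clones, can be read beside CLDN3, which was near 0 in all of them. KRT8 lies at chr12:52926420-52926719 on the minus strand, CLDN3 at chr7:73770221-73770520 on the minus strand and CLDN4 at chr7:73830746-73831045 on the plus strand. KRT18, KRT19, KRT7, EPCAM and CDH1 are only named. Capitals mark the E-box CANNTG, the core letters read by the repressors SNAI1, SNAI2, ZEB1 and ZEB2 and by myogenic factors such as MYOD1.
KRT8: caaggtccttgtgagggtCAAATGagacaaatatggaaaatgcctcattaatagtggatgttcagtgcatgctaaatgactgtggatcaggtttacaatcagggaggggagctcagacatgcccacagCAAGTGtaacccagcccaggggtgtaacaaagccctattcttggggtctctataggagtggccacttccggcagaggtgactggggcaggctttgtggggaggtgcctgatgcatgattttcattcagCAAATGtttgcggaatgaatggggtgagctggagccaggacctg
CLDN3: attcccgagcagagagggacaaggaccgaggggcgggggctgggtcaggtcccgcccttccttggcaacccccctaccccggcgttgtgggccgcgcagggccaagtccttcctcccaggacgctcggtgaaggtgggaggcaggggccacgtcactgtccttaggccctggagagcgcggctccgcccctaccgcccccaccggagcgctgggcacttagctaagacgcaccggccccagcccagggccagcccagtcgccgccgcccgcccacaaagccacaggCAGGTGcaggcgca
CLDN4: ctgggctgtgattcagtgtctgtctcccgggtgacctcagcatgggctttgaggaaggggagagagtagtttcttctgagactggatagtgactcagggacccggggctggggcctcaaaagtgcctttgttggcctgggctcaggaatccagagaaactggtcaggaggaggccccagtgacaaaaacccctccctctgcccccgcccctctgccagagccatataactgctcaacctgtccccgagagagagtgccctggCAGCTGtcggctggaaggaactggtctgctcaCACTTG

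The KRT8 window held 3 E-boxes, that of CLDN3 held 1 and that of CLDN4 held 2. Of all 35116 RefSeq windows of this length, 68.7% held 1 or more. The variant CAGGTG, itself an E-box and searched on both strands, is the form most often bound by SNAI and ZEB factors, and it was in the CLDN3 window and in 20.6% of all windows. The AP-1 letters TGANTCA were in the CLDN4 window at 2 places and in 7.71% of all windows. TATAAA and the forkhead letters GTAAACA, searched on both strands, were in none of the 3 windows, against 11.5% and 3.42% of all windows. The GC content was 50.7% for KRT8, 72.0% for CLDN3 and 59.0% for CLDN4, and its median over all windows was 58.7%. RefSeq gives 1 window a gene, and GENCODE v29 also annotates KRT8 starts elsewhere, so the KRT8 window shown need not be the start used in Rh30.

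Library totals were 17746684 to 26834005 counts in the 10 untreated libraries and 25863451 to 30466960 estimated counts in the 10 time-course columns, each of which pools the 2 samples of a condition. Nothing in the labels states that paired libraries were grown apart, so p-values measure only the spread between these libraries, which may be technical. The 2 parental libraries stood apart in that they were almost identical: the chi-square of their counts was 1.84 per degree of freedom, against 13.99 to 51.27 between the 2 libraries of a clone. MYOD1, a defining gene of this tumour, was at 41194 to 69097 normalised counts in the clones and 25631 and 25944 in parental cells. DES and MYOG were likewise abundant, and MYF5 had no read in any of the 10. Normalised counts are reads divided by the TMM-scaled library size and multiplied by the mean of those sizes, so they compare libraries within a table but not genes of unequal length.

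KRT8 and KRT18 mRNA were high in clone 4 and in clone 10, and KRT18 was close to 0 in clone 11, clone 12 and parental cells. KRT7 was highest in clone 12 and CLDN4 in clone 10, each at a much lower level. EPCAM was present in every library, at 51.1 to 131 normalised counts, and KRT19, CLDN3 and CDH1 had at most 4 counts in any group. Of the 8 genes, 5 passed the filter on low counts. In bulk RNA a few cells with much keratin mRNA and many cells with little cannot be told apart.

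KRT18 had 1170 and 1499 normalised counts in clone 4, 834 and 900 for clone 10, 0 and 0 in clone 11, 3.70 and 0 for clone 12, and 1.64 and 2.18 in parental cells. The libraries of clones 4 and 10 stood more than 2 orders of magnitude above the rest, and those of clone 12 overlapped parental cells. Because the parental value rests on 2 and 3 reads, the difference is given as a ratio of counts with an exact 95% interval that covers counting error only: 690 (295 to 2127) for clone 4 over parental and 448 (192 to 1382) for clone 10 over parental. In clone 12 that ratio was 0.88 (0.14 to 4.53), so no difference could be detected at this depth. In clone 11 no read was found in either library, where 3 reads would correspond to 2.69 and 4.0 normalised counts, and no fold is given since the parental count was itself no higher.

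KRT8, the type II partner of KRT18, had 1392 and 1695 normalised counts in clone 4, 174 and 142 for clone 10, 36.7 and 65.4 in clone 11, 18.5 and 32.5 for clone 12, and 37.7 and 29.1 in parental cells. Clone 4 was highest, clone 10 came next, and the libraries of clone 11, clone 12 and parental cells overlapped. The log2 difference from parental cells was 5.53 ± 0.30 (SE) in clone 4, or 46.2-fold, and 2.25 ± 0.29 in clone 10, or 4.75-fold. In clones 11 and 12 it was 0.58 ± 0.32 and -0.36 ± 0.36. Unlike KRT18, KRT8 was thus never near 0, and parental cells held a low but measurable level without its partner.

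KRT7, a type II keratin of ducts and glands, had 20.6 and 28.9 normalised counts in clone 4, 14.6 and 33.8 for clone 10, 8.07 and 20 in clone 11, 50.5 and 54.4 for clone 12, and 16.4 and 13.1 in parental cells. Clone 12 stood above every other library, at a log2 difference from parental cells of 1.83 ± 0.46. The libraries of clone 10 overlapped those of clones 4 and 11 and of parental cells, and the log2 differences were 0.74 ± 0.49, 0.69 ± 0.49 and -0.14 ± 0.53 for clones 4, 10 and 11. The clone with the most KRT7 was therefore one with KRT18 near 0 and little KRT8. KRT19, the type I keratin that often accompanies KRT7, had 0 to 3 counts in a group, which is at or under the limit that a count of 0 allows in each library.

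CLDN4, a claudin of absorptive and secretory epithelia, had 2.17 and 16.2 normalised counts in clone 4, 53.7 and 66.5 for clone 10, 15.2 and 42.7 in clone 11, 22.2 and 24.1 for clone 12, and 9.83 and 15.3 in parental cells. Clone 10 was above all other libraries, at a log2 difference of 2.23 ± 0.58 from parental cells. The difference was -0.48 ± 0.72 in clone 4, 1.13 ± 0.62 in clone 11 and 0.87 ± 0.63 in clone 12. The clone 4 value rests on unlike libraries, and without replicate 2 it was -2.54. CLDN3, the neighbour of CLDN4 on chromosome 7, had 0 to 4 counts in a group.

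EPCAM had 79.1 and 131 normalised counts in clone 4, 116 and 104 for clone 10, 51.1 and 52.1 in clone 11, 55.5 and 87.9 for clone 12, and 84.4 and 92.4 in parental cells. The lowest group was clone 11, below all others, and clone 10 lay above parental cells without overlap. Log2 differences from parental cells were 0.24 ± 0.28, 0.31 ± 0.28, -0.78 ± 0.30 and -0.29 ± 0.29 in clones 4, 10, 11 and 12. CDH1 had 2 counts in clone 4, 0 in clones 10, 11 and 12 and 1 in parental cells. E-cadherin mRNA was therefore not detectable above the limit of a 0 count in the clones that carried most KRT8 and KRT18.

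**Figure D1:**
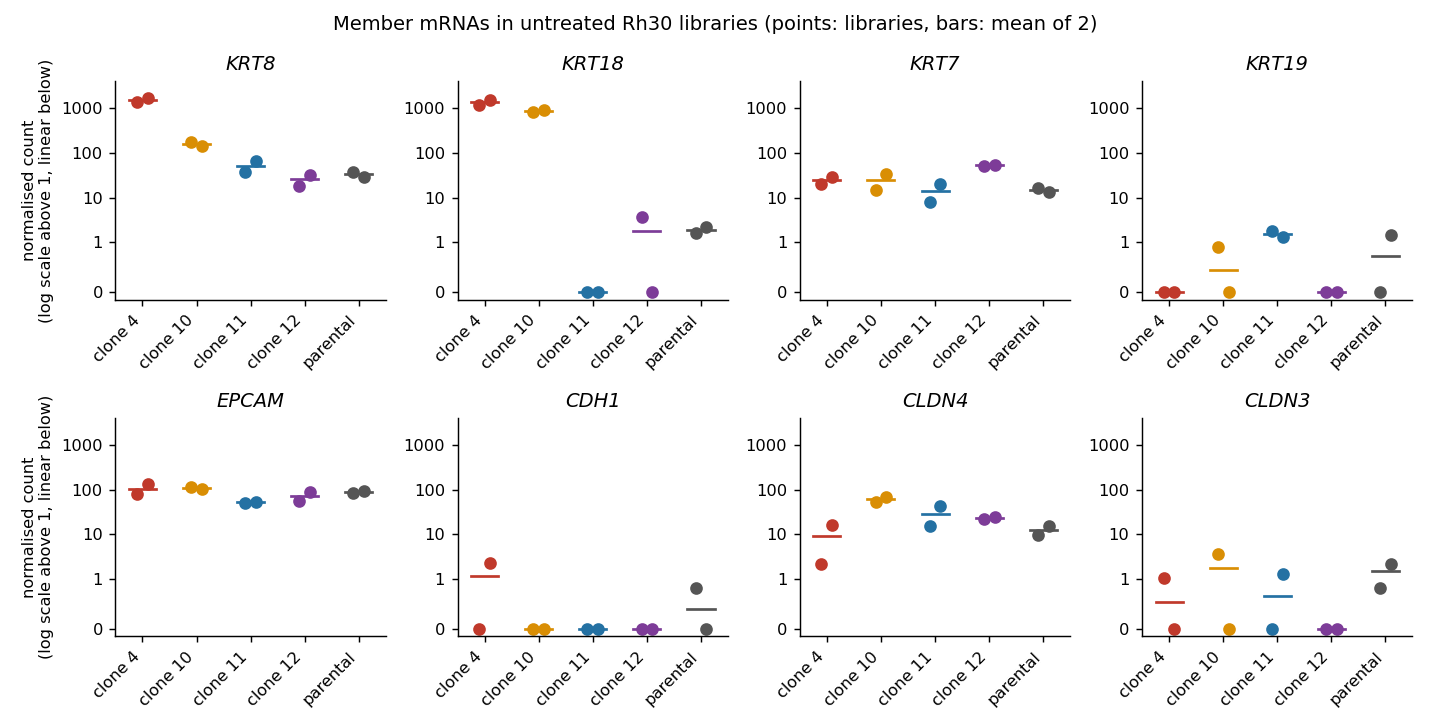
Normalised counts of the 8 genes in each untreated library (points) with the mean of 2 (bars), clones at left and parental cells at right, on an axis that is logarithmic above 1 and linear below. KRT8 and KRT18 are highest in clone 4 and then clone 10, KRT18 is at 0 in both clone 11 libraries, and KRT19, CDH1 and CLDN3 stay below 4 in every library.

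Compared per kilobase of transcript, the order of the genes changed between clones. In clone 4, KRT18 averaged 854 ± 149 and KRT8 726 ± 101 normalised counts per kb (SD, n = 2), followed by EPCAM at 60.9 ± 21.2, KRT7 at 14.1 ± 3.4 and CLDN4 at 2.21 ± 2.38. In clone 10, KRT18 averaged 555 ± 30.2 per kb, far above KRT8 at 74.3 ± 10.6 and EPCAM at 63.6 ± 4.9, which overlapped in level. In parental cells EPCAM led with 51.3 ± 3.3 per kb, ahead of KRT8 at 15.7 ± 2.9 and KRT7 at 8.40 ± 1.32, and KRT18 was at 1.22 ± 0.25.

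The filament partners were thus near balance in 1 clone only. KRT18 per kb over KRT8 per kb was 1.14 and 1.20 in the clone 4 libraries and 6.53 and 8.63 in those of clone 10. The ratio was not computed for clone 11, clone 12 and parental cells, where KRT18 had under 10 counts. In the PAX3-FOXO1-FKBP time-course line, whose table was scaled separately, it was 9.92 in DMSO, 8.29 at 2 h of dTAG, 9.88 at 6 h, 4.97 at 24 h and 5.64 at 72 h. KRT8 and KRT18 are adjacent genes, and some GENCODE v29 transcripts of KRT8 overlap KRT18 on the other strand. Strand use in the authors' counting is not stated, so reads from such transcripts cannot be assigned with certainty. Processed pseudogenes of both are numerous, with 52 RefSeq entries for KRT8 and 68 for KRT18, and reads shared with them may also have been split.

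**Figure D2:**
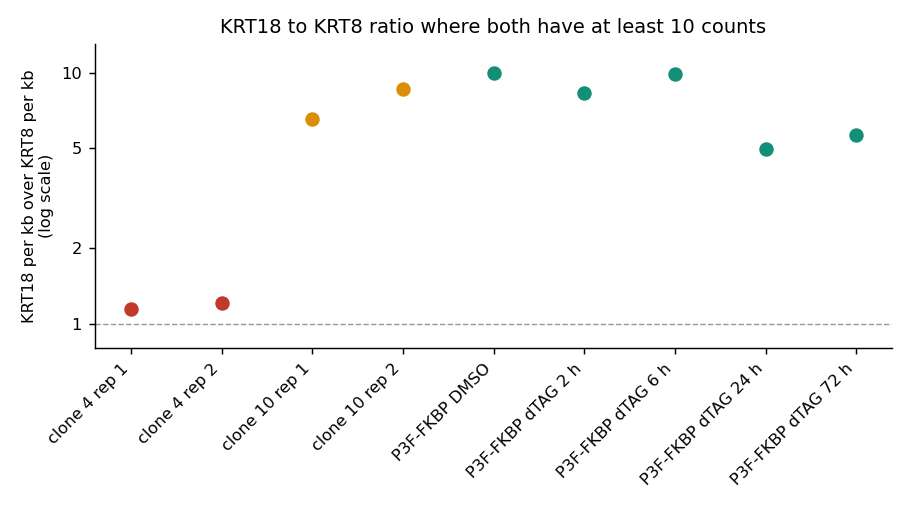
KRT18 over KRT8, each per kb of transcript, on a log axis for libraries and pooled columns with at least 10 counts of both; the dashed line marks 1 and P3F-FKBP stands for the PAX3-FOXO1-FKBP line. The 2 libraries of clone 4 lie at 1.14 and 1.20, those of clone 10 at 6.53 and 8.63, and the time-course columns between 4.97 and 9.92.

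Over all 14175 genes tested, 47.4% were called between clone 4 and parental cells, 52% for clone 10, 51.6% for clone 11 and 52.6% for clone 12 (edgeR quasi-likelihood test, adjusted p under 0.05). Of the 5 genes of the set that were tested, 2 were called higher in clone 4 (KRT8, KRT18) and 3 in clone 10 (KRT8, KRT18, CLDN4). In clone 11, 1 was called lower (EPCAM) and in clone 12 1 was called higher (KRT7). The genes were chosen on these contrasts and KRT18 passed the filter only through clones 4 and 10, so nothing is read from these counts. For clones 4, 10, 11 and 12, genes called and at least 4-fold higher made up 1.92%, 2.67%, 1.28% and 2.15% of those tested. Libraries stood above parental cells without overlap for 3, 4, 0 and 2 of all 8 members, and below for 0, 0, 2 and 1, the last being CLDN3, which did not pass the filter. Over all genes, 76.6%, 83.5%, 82.1% and 85% did not overlap in either direction. The median log2 difference of the 5 was 0.74, 2.23, -0.14 and -0.17 in clones 4, 10, 11 and 12, beside 0.05, 0.05, -0.00 and 0.03 over all genes tested. With KRT18 of clone 11 set at its 3-read limit, the clone 11 median was 0.58.

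The genes whose profile over the 10 untreated libraries was most like each member were found by the mean absolute difference of centred log2 CPM values. For KRT8 it was IQSEC3 (0.42), which had 135 and 85.7 normalised counts in clone 4, against 0.82 and 0.73 in parental cells. For KRT18 they were KIF16B, a kinesin (1.86), and RTN1 (2.27). These distances are not scaled to the spread of the member. The SD of its log2 values was 4.42 for KRT18 and 0.47 for EPCAM, so distances do not compare between members. KIF16B had 112 and 75.2 normalised counts in clone 4, 82.8 and 63.1 for clone 10, 0.90 and 0 in clone 11, 0 and 0 for clone 12, and 4.91 and 5.82 in parental cells. LAD1 (0.16), a basement membrane anchoring filament protein, and S100A16 (0.19) were most like KRT7. NEIL3 (0.15) and CDK2 (0.16) were most like EPCAM, and TNFAIP6 (0.33) and RAB3IL1 (0.36) were most like CLDN4.

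Most of the keratin family had few or no reads. Of all 55 keratin genes in the clone table, members included, 24 had no read in any untreated library. Another 23 had reads but averaged under 10 counts, and 8 averaged at least 10 counts, among them the members KRT8, KRT18 and KRT7. KRT17, a type I keratin of basal and injured epithelium, had the most counts over the 10 untreated libraries together. It had 10685 and 10735 normalised counts in clone 4, 4803 and 5404 for clone 10, and 23435 and 33962 in clone 11. In clone 12 it had 794 and 849, and in parental cells 2646 and 2639. Companion calls named from here on held without any 1 library unless stated. KRT17 rose in clones 4, 10 and 11, by 2.02, 0.95 and 3.44 on the log2 scale, and fell by 1.69 in clone 12 (edgeR adjusted p = 2.55e-05, 0.000926, 4.92e-06 and 6.12e-05). Clone 11, which had no KRT18 read, therefore had the most KRT17. KRT80, the main type II keratin, rose in clone 12 by 1.17 and in clone 4 by 0.61 (edgeR adjusted p = 0.000149 and 0.00504). It had 6580 and 6688 normalised counts in clone 12 and 2933 and 2977 in parental cells. Per kb of transcript, KRT80 exceeded KRT17 in clone 12 (1705 and 1733 against 481 and 514). In parental cells it lay below KRT17 (760 and 771 against 1603 and 1598 per kb).

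Of the 6 other keratins tested in a list of 16, 2 rose and 2 fell in clone 4, 1 rose and 1 fell in clone 10, 5 rose in clone 11, and 2 rose and 2 fell in clone 12. Among all genes, 25.1%, 27.8%, 26.5% and 27.8% were called higher in these clones and 22.3%, 24.2%, 25.1% and 24.7% lower. The same shares stand beside the clone calls of every list below. KRT16 rose in clone 11 by 2.88 (edgeR adjusted p = 0.000504), with 40.3 and 52.1 normalised counts there and 4.91 and 7.27 in parental cells. KRT20, an intestinal keratin, rose in clone 11 by 3.10 (adjusted p = 0.00362), with 29.6 and 73.4 there against 4.91 and 6.55 in parental cells. KRT10 rose by 1.12 in clone 11 and by 0.96 in clone 12 (adjusted p = 0.00083 and 0.0019). The clone 10 fall was that of KRT80, at -0.41 (adjusted p = 0.0322), and it did not pass without any 1 of the clone 10 or parental libraries (adjusted p = 0.0878 to 0.14). In clone 4 the count of calls was 2 without parental replicate 2.

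Per kb, KRT8 made up 36% and 39.6% of all type II keratin mRNA in the clone 4 libraries and 12.2% and 9.98% in those of clone 10, against 2.24% and 1.72% in parental cells. KRT18 made up 9.83% and 11.9% of type I keratin mRNA in clone 4 and 13.9% and 13.2% in clone 10, against 0.053% and 0.071% in parental cells. Summed over the family, type I exceeded type II by 4.19 and 4.01 times in clone 4, 5.75 and 6.52 times in clone 10, 17.6 and 18.7 times in clone 11 and 2.51 and 2.49 times in parental cells. In clone 12 the ratio was 0.69 and 0.68, the only one of the 5 untreated groups with more type II than type I keratin mRNA. The FOXO1-FKBP line, whose table was scaled separately, had a ratio of 0.94 in DMSO. At 2, 6, 24 and 72 h of dTAG it had 0.92, 1.37, 0.78 and 1.36.

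**Figure D3:**
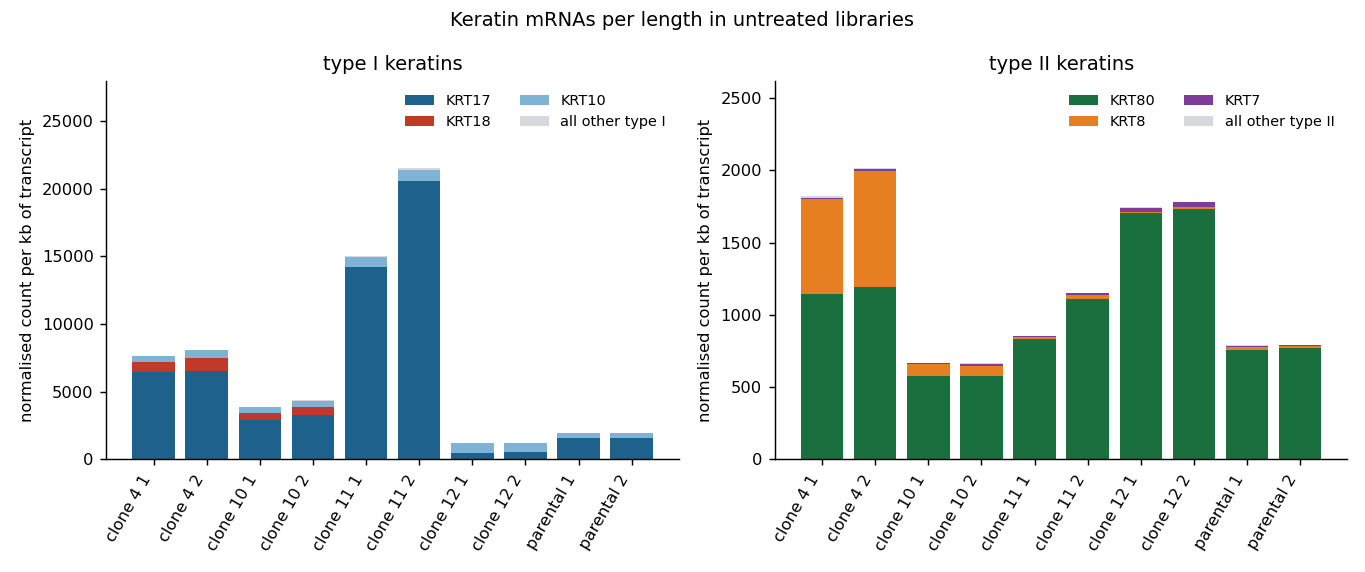
Stacked bars of normalised counts per kb of transcript for type I (left) and type II (right) keratins in each untreated library, clones left of parental cells; the axes differ in range. KRT18 adds 9.83% to 13.9% of the type I bars in clones 4 and 10, KRT8 36% and 39.6% of the type II bars in clone 4, and KRT80 is the largest part of every type II bar. KRT17 is the largest part of the type I bars except in clone 12, where KRT10 is.

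Other tight junction genes did not move one way. Of 15 tested in a list of 22, 3 rose and 2 fell in clone 4, 4 rose and 2 fell in clone 10, 1 rose and 2 fell in clone 11, and 4 rose and 3 fell in clone 12, with medians of 0.15, -0.00, -0.03 and -0.02 on the log2 scale. CGN (cingulin), a cytoplasmic plaque protein, rose in clone 10 by 1.67 (edgeR adjusted p = 0.00171), with 208 and 207 normalised counts against 63.9 and 66.2 in parental cells. CGNL1, its relative, also rose in clone 10, by 1.15 (adjusted p = 0.00494). OCLN (occludin), a membrane protein of the junction strand, fell by 2.34 in clone 12 (adjusted p = 0.000139), to 34.5 and 26.2 normalised counts against 154 and 152 in parental cells, and CLDN5, the endothelial claudin, rose there by 1.60 (adjusted p = 0.00377). Without parental replicates 1 or 2 the numbers called were 2 or 2 in clone 4, 3 or 2 in clone 10, 0 or 0 in clone 11 and 3 or 3 in clone 12. Without the clone's own replicate 1 it was 3 in clones 4 and 12, and without its replicate 2 it was 3, 1 and 4 in clones 10, 11 and 12.

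Among adherens junction and desmosome genes, 14 tested of 20, 6 rose and 1 fell in clone 4, 5 rose and 3 fell in clone 10, 2 rose and 3 fell in clone 11, and 3 fell in clone 12. PVRL2 (nectin-2) rose in clones 4, 10 and 11, by 1.16, 1.35 and 0.80 (edgeR adjusted p = 0.000465, 0.000174 and 0.00289). PKP2 (plakophilin-2), a desmosomal plaque protein, fell by 2.83 in clone 11 (adjusted p = 0.000159), to 11.7 and 6.67 normalised counts against 70.4 and 66.9 in parental cells. CDH3 (P-cadherin) fell by 1.65 in clone 12 (adjusted p = 0.000148), with 76.4 and 81.7 normalised counts against 274 and 225. PVRL3 fell in clones 11 and 12, by 1.60 and 0.76 (adjusted p = 0.000159 and 0.00559). In clone 10, 5 were called without either parental library and 4 without clone 10 replicate 1, and in clones 11 and 12 the counts reached 8 and 5 without either clone 4 library. In clone 12 the count was also 5 without clone 10 replicate 1 or either clone 11 library.

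Transcription factors of the epithelial state were tested for 7 of 16 listed genes, and GRHL3, OVOL1 and ELF5 had no read in any untreated library. None rose and 1 fell in clone 4, 2 rose and 1 fell in clone 10, 4 fell in clone 11 and 1 fell in clone 12. Of all genes, 25.1%, 27.8%, 26.5% and 27.8% were called higher in clones 4, 10, 11 and 12. The shares called lower were 22.3%, 24.2%, 25.1% and 24.7%. KLF4 rose in clone 10 by 1.15 (edgeR adjusted p = 0.000284), with 466 and 444 normalised counts against 193 and 216 in parental cells. TP63, the basal epithelial regulator, fell by 3.05 in clone 4 (adjusted p = 0.00318), with 2.17 and 2.32 normalised counts against 24.6 and 14.5. FOXA1, a pioneer factor of glandular epithelium, fell by 1.77 in clone 11 (adjusted p = 0.000422). Without parental replicate 1 the counts were 1 in clone 10, 1 in clone 11 and 0 for clone 12, and without parental replicate 2 they were 1 in clone 10 and 0 in clone 12. Without the clone's own replicate 1 they were 1, 2 and 0 in clones 10, 11 and 12, and without replicate 2 they were 2 in clones 4 and 11.

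Among 12 tested of 20 other epithelial surface and trafficking genes, 3 rose in clone 4, 4 rose and 2 fell in clone 10, 4 rose in clone 11, and 6 rose and 2 fell in clone 12. LSR, the tricellular junction receptor angulin-1, rose in clones 4 and 12 by 1.56 and 1.86 (edgeR adjusted p = 0.000206 and 7.49e-05). AP1M2, an epithelial adaptor subunit for basolateral sorting, also rose in clones 4 and 12, by 2.02 and 2.81 (adjusted p = 0.00109 and 0.000162). SPINT2, a membrane serine protease inhibitor, rose in clone 4 by 1.92 (adjusted p = 0.00162), and CD24 rose in clone 10 by 1.52 (adjusted p = 0.00266). Clone 12, where LSR and AP1M2 rose, had KRT18 near 0. In clone 11 the count was 1 without parental replicate 2 and 0 without clone 11 replicate 2, in clone 10 it was 2 without parental replicate 1 or clone 10 replicate 2, and 3 without parental replicate 2. In clone 12 it was 4 without parental replicate 1 and 5 without parental replicate 2 or either clone 12 library.

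Repressors of epithelial genes were called in both directions, with 2 up and 1 down of 6 tested in clone 4, 3 up and 2 down in clone 10, 3 up and 3 down in clone 11, and 2 up and 2 down in clone 12. ZEB1, a repressor of E-cadherin and other epithelial genes, fell in all 4 clones, by 1.01, 0.91, 1.62 and 1.07 in clones 4, 10, 11 and 12 (edgeR adjusted p = 0.000985, 0.00152, 0.000122 and 0.000641). It had 778 and 700 normalised counts in clone 4 and 468 and 505 in clone 11, against 1510 and 1477 in parental cells. TWIST1 rose in clones 4, 10 and 12, by 1.95, 2.26 and 1.43 (adjusted p = 9.79e-05, 4.01e-05 and 0.000455). It was also called in clone 11, at 0.85 (adjusted p = 0.00887), but not without either parental library or clone 11 replicate 2 (adjusted p = 0.0531 to 0.0707). SNAI2 fell in clones 10 and 11, by 1.06 and 0.85 (adjusted p = 0.000453 and 0.00149). Without either parental library, 3 of the list were called in clone 10 and 3 or 2 in clone 11. The count was also 3 in clone 10 without either of its own libraries or clone 4 replicate 2, and 3 in clone 11 without its replicate 2.

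The filament and cadherin genes of muscle and mesenchyme were called in both directions in every clone. Of 9 tested in a list of 12, 3 rose and 1 fell in clone 4, 4 rose and 1 fell in clone 10, 3 rose and 2 fell in clone 11, and 4 rose and 3 fell in clone 12. DES (desmin), the muscle filament protein, rose in all 4 clones, by 0.74, 1.79, 1.18 and 1.60 in clones 4, 10, 11 and 12 (edgeR adjusted p = 0.00214, 2.23e-05, 0.000186 and 4.33e-05). NES (nestin) rose in clones 4, 10 and 12, by 1.28, 1.44 and 0.92 (adjusted p = 0.000107, 5.37e-05 and 0.000502). CDH15 (M-cadherin) rose in clones 4, 10 and 11, by 1.5, 1.10 and 1.05 (adjusted p = 3.58e-05, 0.000149 and 0.000203). CDH2 (N-cadherin) fell by 1.33 in clone 12 (adjusted p = 0.000398). Without parental replicate 2, 3 were called in clone 11 and 4 for clone 12, which also had 4 without its replicate 1.

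**Figure D4:**
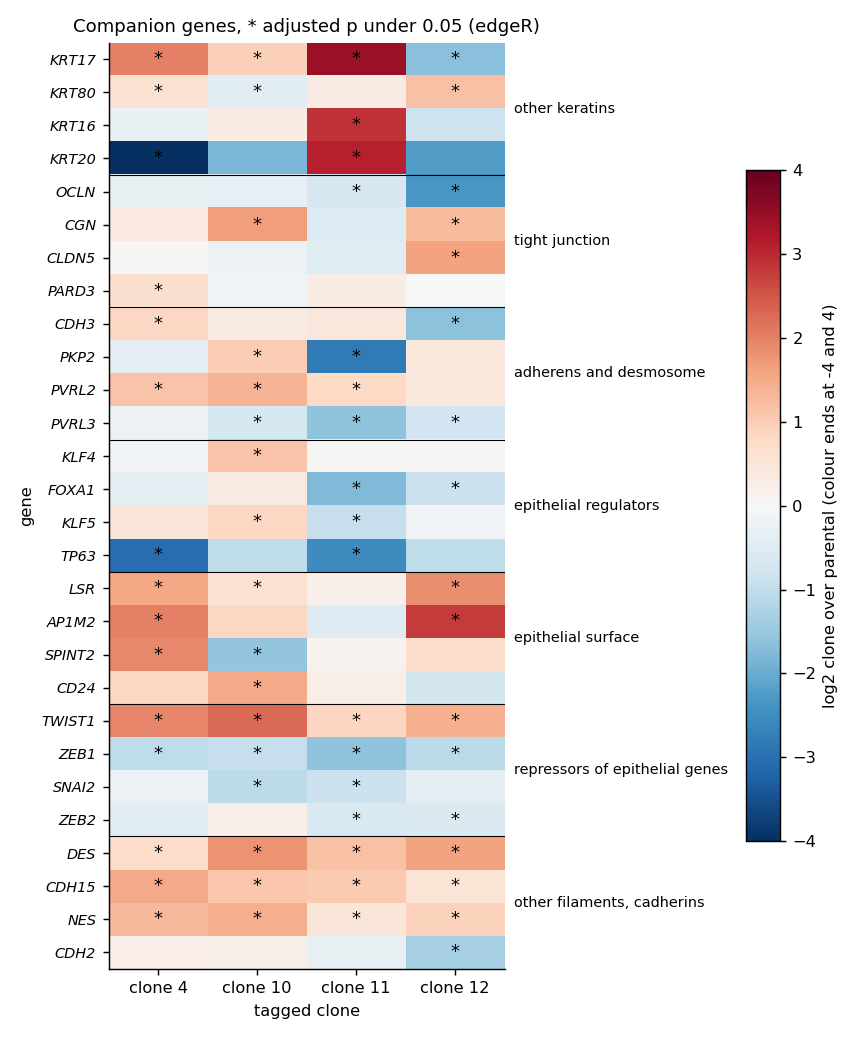
Log2 difference of each clone from parental cells for the genes of the 7 companion lists with the lowest p over all 5 untreated groups (up to 4 a list); red is higher and blue lower in the clone, and stars mark an edgeR adjusted p under 0.05. KRT17 runs from 3.44 in clone 11 to -1.69 in clone 12, KRT20 had no read in clone 4, where its colour depends on the prior count, and ZEB1 is below 0 and TWIST1 and DES above 0 in all 4 clones.

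Markers of other cell types were read beside these values. Of the 12 blood markers, MS4A1 had no read in any untreated library, 4 or 5 of the 12 were at 0 in each group, and the list summed to 5042 to 6181 in clone 4, 2557 to 3830 for clone 10, 2532 to 5587 in clone 11, 1677 to 3221 for clone 12 and 2235 to 2316 in parental cells, mostly LAPTM5 and CORO1A. Of the 5 tested, 4 rose in clone 4, 2 in clone 11 and none in clones 10 and 12. The 8 endothelial markers summed to 529 to 551 in clone 4, 544 to 580 for clone 10, 133 to 160 in clone 11, 171 to 265 for clone 12 and 237 to 274 in parental cells, with 3 up and 1 down of 6 tested in clone 4, 2 and 2 for clone 10, 0 and 3 in clone 11, and 1 and 3 for clone 12. The 8 fibroblast markers summed to 1374 to 1752 in clone 4, 23244 to 24383 for clone 10, 1919 to 2141 in clone 11, 3626 to 4381 for clone 12 and 1099 to 1102 in parental cells, with 1 up and 2 down of 6 tested in clone 4, 3 and 0 for clone 10, 1 and 2 in clone 11, and 3 and 1 for clone 12. The 8 rhabdomyosarcoma genes summed to 107408 to 134359 in the clones and to 70490 and 70540 in parental cells, with 4 up of 7 tested in clone 4, 3 up and 1 down in clone 10, 4 up and 1 down in clone 11, and 3 up and 1 down in clone 12. In clone 10 single genes made up most of the fibroblast and endothelial sums. COL3A1 had 20709 and 21460 normalised counts there, and TIE1 had 398 and 453. The part of any of these cell types in the keratin values was not tested.

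In the PAX3-FOXO1-FKBP line KRT18 was lower at 24 and 72 h of dTAG than in DMSO, EPCAM was higher at 2 h, and KRT7 was higher at 2, 6 and 72 h at a level of few counts. KRT18 had 579 normalised estimated counts in DMSO, 558 at 2 h of dTAG, 512 at 6 h, 243 at 24 h and 283 at 72 h. The first 3 columns were close and the last 2 were lower than DMSO by more than 2-fold, with log2 differences of -0.05, -0.18, -1.24 and -1.03 at 2, 6, 24 and 72 h. As ratios of counts to DMSO these were 0.88 at 6 h (exact 95% interval 0.78 to 0.998), 0.42 at 24 h (0.36 to 0.49) and 0.49 at 72 h (0.42 to 0.56). The intervals cover counting error only and no replicate error, since each column pools its 2 samples. At 72 h KRT18 was still far above the 2.07 normalised estimated counts of the FOXO1-FKBP line, whose table was scaled separately.

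KRT8 did not follow its partner beyond counting error. It had 79.4 in DMSO, 91.6 at 2 h, 70.6 at 6 h, 66.6 at 24 h and 68.3 at 72 h, and its ratio to DMSO was 0.83 at 24 h (0.59 to 1.17) and 0.86 at 72 h (0.61 to 1.20). The ratio interval of KRT18 at 24 h lay wholly below that of KRT8. EPCAM had 178 in DMSO, 289 at 2 h, 207 at 6 h, 164 at 24 h and 206 at 72 h, and the highest value was that of 2 h, at 1.62 times DMSO (1.35 to 1.96). CLDN4 had 51.0, 51.8, 67.7, 35.8 and 40.3 in the same order, KRT7 had 3.19, 12.2, 14.5, 6.22 and 20.7, and CLDN3, CDH1 and KRT19 stayed below 4 in all 5 columns. For KRT7 the DMSO column rests on 3.33 estimated counts, and counts were rounded to whole numbers for ratios, which matters at this level. Its ratio to DMSO so computed was 4.33 at 2 h (1.19 to 23.7), 4.98 at 6 h (1.39 to 27) and 7.21 at 72 h (2.14 to 37.9).

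The 2 h column of this line stood apart in genes of another lineage. The 12 blood markers summed to 4907 normalised estimated counts at 2 h, against 3117 in DMSO and 2783 at 6 h. CD79A, a B cell receptor subunit, had 124 at 2 h against 7.35 in DMSO, and none of the 12 was at 0 there, while 3 were at 0 in DMSO and at 6 h. SPINT2 had 84.1 at 2 h against 5.55 in DMSO and 7.93 at 6 h. The part of this column's contents in the EPCAM value of 289 was not tested.

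In the FOXO1-FKBP line, EPCAM had 147 normalised estimated counts in DMSO, 177 at 2 h of dTAG, 186 at 6 h, 141 at 24 h and 185 at 72 h. KRT8 had 10.7, 7.76, 10.7, 9.05 and 15.9 and KRT18 had 3.78, 2.66, 4.5, 2.42 and 2.07 in the same order, so neither keratin of the pair was abundant in this line. CLDN4 had 19.0, 26.5, 29.9, 13.7 and 21.5 and KRT7 had 10.8, 12, 10.7, 5.25 and 9.40. The EPCAM ratio to DMSO was 1.26 at 6 h (1.008 to 1.577) and 1.25 at 72 h (1.005 to 1.566), with a lower bound just above 1 at both times. No ratio interval of KRT8, KRT18, KRT7 or CLDN4 to DMSO excluded 1 in this line, and KRT18 was too low there for a fall of the size seen in the PAX3-FOXO1-FKBP line to be detectable. CLDN3 had 2.58 to 6.05, CDH1 at most 1.33, and KRT19 was listed at 0 in all 5 columns.

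**Figure D5:**
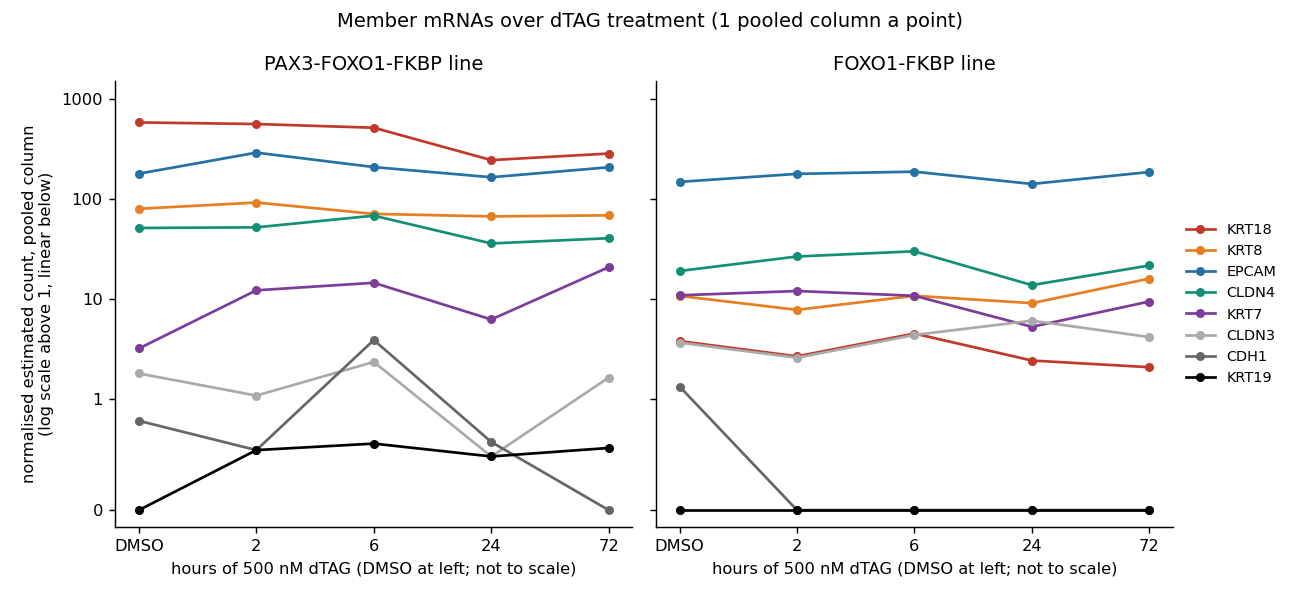
Normalised estimated counts of the 8 genes in each pooled column, with DMSO at left and hours of dTAG after it, for the PAX3-FOXO1-FKBP line (left) and the FOXO1-FKBP line (right); the axis is logarithmic above 1 and linear below. KRT18 starts at 579 and lies at 243 and 283 in the last 2 columns of the left panel, and between 2.07 and 4.5 in the right panel.

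A rule of size stands in for a test at single times: at least 2-fold on log2(normalised estimated count + 2) with a mean of at least 50 over the 5 columns. In the PAX3-FOXO1-FKBP line 3 genes of the set met that mean, KRT18, EPCAM and KRT8, the last with 75.3, and CLDN4 at 49.3 fell just short. Of these, 1 (KRT18) was at least 2-fold lower at 24 h and at 72 h, beside 1.73% and 3.01% of the 12334 genes measured. At 2 and 6 h none was 2-fold lower, beside 0.284% and 1.23% of genes. None was 2-fold higher at any time, beside 0.373%, 0.608%, 1.38% and 3.47% of genes at 2, 6, 24 and 72 h. Nothing is read from these counts, since the genes were chosen with this contrast known. In the FOXO1-FKBP line 1 gene of the set met the mean (EPCAM), and it did not pass 2-fold at any time, beside 0.0751%, 0.0584%, 0.209% and 0.417% of genes either way at 2, 6, 24 and 72 h. The median log2 difference of the 3 genes was 0.20, -0.17, -0.25 and -0.21 at 2, 6, 24 and 72 h, against 0.00 to 0.01 in size over all genes.

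The companion genes were tested for a trend over log2(hours + 1) across the 5 columns of a line with edgeR, whose p-values measure scatter around a line and not replicate error. In the PAX3-FOXO1-FKBP line 4.54% of 14255 genes were called, 2.41% up and 2.13% down, and in the FOXO1-FKBP line 0 of 13862. Of the tight junction genes 2 of 15 rose, CLDN1 and CGNL1. CLDN1, a claudin of many epithelia, had 37.2 in DMSO, 36.6 at 2 h, 69.3 at 6 h, 71.9 at 24 h and 143 at 72 h (slope 0.32, adjusted p = 0.0227). CGNL1 had 570, 767, 990, 1080 and 1090 (slope 0.15, adjusted p = 0.0421). Both differed between the lines in slope, by 0.41 and 0.21 (adjusted p of the interaction = 0.0274 and 0.0329), but not without the 2 h column (0.11 and 0.15) or the 72 h column (0.23 and 0.13). Over all 14506 genes tested, 2.02% were called for such a difference. With library totals in place of TMM, CGNL1 passed neither for its trend (adjusted p = 0.0648) nor for the difference (0.0758).

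Of the epithelial regulators 2 of 7 rose and 1 fell. ELF3, a factor of simple epithelia, had 6.99, 9.38, 16.0, 17.5 and 39.9 (edgeR slope 0.40, adjusted p = 0.029), and TP63 had 35.0, 31.1, 44.6, 78.1 and 114 (slope 0.32, adjusted p = 0.0206). KLF4 fell, with 711 in DMSO and 335, 258, 241 and 239 after dTAG (edgeR slope -0.24, adjusted p = 0.0463). CDH3 fell (1 of 15 adherens junction and desmosome genes), with 437 in DMSO and 209 at 72 h (slope -0.17, adjusted p = 0.0222). CD24 and the non-muscle myosin MYH14 fell (2 of 10 surface genes), with slopes of -0.29 and -0.14 (adjusted p = 0.0222 and 0.0185). Of the other keratins 0 of 3 were called, of the repressors of epithelial genes 0 of 6 (3 with DESeq2), and of the mesenchymal filament and cadherin genes 1 of 8, DES, which rose (slope 0.24, adjusted p = 0.00607). The difference in slope between the lines did not pass for ELF3, TP63, KLF4, CDH3 or CD24 (edgeR interaction adjusted p = 0.0533 to 0.441). It passed for MYH14 and DES (0.0134 and 0.0141), but not without the 2 h or the 72 h column.

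In the same line trend calls were 2 up of 7 rhabdomyosarcoma genes, 1 down of 3 blood markers, 2 down of 5 endothelial markers, and 2 up and 1 down of 8 fibroblast markers. Without the 72 h column none of the companion genes named for a trend passed, the nearest being CGNL1 (adjusted p = 0.0774), and the trend of CGNL1 also did not pass without the 2 h column (adjusted p = 0.0749). ELF3 did not pass without the 2 h column either (adjusted p = 0.0568). DESeq2 called 1 gene in the FOXO1-FKBP line where edgeR called 0.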

How the data were processed

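Rh30 RNA was sequenced in 30 samples. Per the submitters' processing notes, Trimmomatic 0.32, Bowtie2, Cuffdiff 2.1.1 and build hg19 were used; their roles, the annotation and strand use are not stated. For the clones, the authors deposited raw counts, 1 column a library. For the time course, the authors deposited estimated counts, 1 pooled column a condition per the file headers. Of these values 73.6% are not whole, and they were rounded for tests and for ratios of counts with their intervals.

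All 10 clone and parental libraries entered 1 quasi-likelihood fit in edgeR 4.0.16, run in R 4.3.3 (filterByExpr minimum count 10, TMM, 5 residual degrees of freedom), with Benjamini-Hochberg adjustment over all genes tested. "Rose" and "fell" mark an adjusted p under 0.05, and changes are log2. Time-course trends used an edgeR slope per line (3 residual degrees of freedom) and an interaction (6). Genes listed at 0 in any column of a line and at 10 or more in each of its other columns that were above 0 (41 in the PAX3-FOXO1-FKBP line, 9 in the FOXO1-FKBP line) may be failed estimates and were left out of the trends and of the rule of size. DESeq2 1.42.0 and the other alternatives are given at the end; code was tested on simulated data. The labels number the clone 12 libraries 3 and 4, and columns carry no match to them, so they are called replicates 1 and 2 here.

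Members and lists were chosen with earlier results of these data known. Besides the 8 members, named genes are up to 4 of each of 7 companion lists (113 genes) by lowest p over the 5 groups, up to 2 by lowest trend p, and 2 most similar profiles a member, of which 1 is not reported here. Lengths per kb are those of the longest GENCODE v29 principal transcript. Promoter windows are from RefSeq.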

Additional observations from a re-analysis of the deposited data

Results flagged for a closer look

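Of the companion and marker genes, 9 differed in trend between the PAX3-FOXO1-FKBP line and the FOXO1-FKBP line by an edgeR interaction test, given here as the difference in log2 slope. Over all 14506 genes tested, 293 (2.02%) were called, 1.12% with a positive and 0.903% with a negative difference. Among junction, surface and filament genes the difference was 0.41 for CLDN1 (adjusted p = 0.0274), 0.21 for CGNL1 (adjusted p = 0.0329), -0.16 for MYH14 (adjusted p = 0.0134) and 0.23 for DES (adjusted p = 0.0141). CLDN1 had in PAX3-FOXO1-FKBP cells 37.2 normalised estimated counts in DMSO and 143 at 72 h, and in FOXO1-FKBP cells 46.1 in DMSO and 33.6 at 72 h. Among markers of other lineages it was 0.27 for MYOG (adjusted p = 0.00249), -0.17 for LAPTM5 (adjusted p = 0.0321), -0.48 for PECAM1 (adjusted p = 0.0263), 0.41 for COL1A1 (adjusted p = 0.0244) and 0.57 for LUM (adjusted p = 0.0411). Without the 2 h column the difference passed only for MYOG and LUM among these 9 (adjusted p = 0.0355 and 0.0475), and without the 72 h column only for MYOG (adjusted p = 0.0174). Each line is 1 cell line with 1 pooled column a condition, so the difference is one between these columns.

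TWIST1 and COL3A1 were above DMSO at all 4 times in the PAX3-FOXO1-FKBP line and below DMSO at all 4 times in the FOXO1-FKBP line. Their log2 differences from DMSO at 72 h in the PAX3-FOXO1-FKBP line were 0.37 and 0.51. This contrast between the lines was picked by direction alone and was not tested in that form; the interaction test on slope did not pass for either (edgeR adjusted p = 0.785 for TWIST1 and 0.0806 for COL3A1).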

How the results depend on the processing

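Each result was recomputed under other scalings, filters, tools and samples. Of 243 counts and medians under alternatives, 200 kept their direction and size class, 37 moved and 6 reversed. Leaving out 1 library gave 3923 to 7027 genes called for clone 4, 4586 to 8135 for clone 10, 4734 to 8069 for clone 11 and 4758 to 8181 for clone 12, the lowest without a parental library. Trend calls in the PAX3-FOXO1-FKBP line were 647, 1046 with DESeq2 and 140 without the 72 h column. In the FOXO1-FKBP line they were 0, then 1 with DESeq2 and 1 without 72 h. The difference in trend was called for 293 genes, 550 with DESeq2, 90 without 2 h and 50 without 72 h. With a minimum mean of 10, genes past 2-fold numbered 254, 402 and 601 at 2, 6 and 24 h in the PAX3-FOXO1-FKBP line and 62, 58, 99 and 141 at 2, 6, 24 and 72 h in the FOXO1-FKBP line.

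The median log2 difference of the 5 genes of the set in clone 10 was 2.12 with library totals, 2.16 without a filter, 2.16 with only the 2 groups compared, 2.08 with a prior count of 2, and 1.96 to 2.18 leaving out 1 library. In clone 4 leaving out 1 library gave 0.42 to 0.93. The medians near 0 changed sign: in clone 11 to 0.22 with only the 2 groups compared, where 4 of the 5 pass the filter, and -0.86 to 0.39 leaving out 1 library (0.03 and 0.39 above 0), in clone 12 to 0.23, again over 4 genes, and -0.22 to 0.75 (0.05 and 0.75 above 0). The median at 6 h in the PAX3-FOXO1-FKBP line was 0.22 with a minimum mean of 10, which adds genes. For the others the cause was not tested. Of 2329 values of companion genes under alternatives, 165 missed the threshold and none reversed. Of 483 counts of calls in the companion lists, 402 stayed the same and 81 moved. With DESeq2 scaling or library totals in place of TMM, 3 repressors of epithelial genes were called in clone 10. With library totals, 5 epithelial surface genes were called in clone 4 and 5 adherens junction and desmosome genes in clone 12.

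Replicate numbers are shared by 4 of the 5 untreated groups. The deviations of same-numbered samples from their own group means (log2 CPM) correlated by 0.147 to 0.364 between clones. Between clones and parental cells these deviations correlated by 0.00869 to 0.0237. The parental libraries were almost identical, so pairs with them cannot decide whether same-numbered samples deviate together. The main fit did not take the numbers as a pairing. With the number as a replicate block, over the groups that share numbers, 7046 genes were called for clone 4, 7705 for clone 10 and 7689 for clone 11, against 6723, 7374 and 7316 without it. Of the calls of named companion genes, that of LSR in clone 10, not listed above, was lost. Its log2 difference was 0.61 in the main fit (edgeR adjusted p = 0.0248, and 0.0557 with the block). This call also did not pass without any 1 of the parental or clone 10 libraries. Depth limits KRT19, CLDN3, CDH1 and the low KRT18 groups, which had few or no counts.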

Other observations

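The genes beside the members were read after their values were seen, so they are given as values. Next to KRT8 and KRT18 on chromosome 12, the keratins KRT78 and KRT79 had no read in any untreated library and KRT4 had 1.34 normalised counts in 1 clone 11 library. On the KRT18 side, EIF4B, a translation initiation factor, differed by -0.27, -0.17, -0.84 and -0.25 on the log2 scale in clones 4, 10, 11 and 12. In the same order TENC1 (tensin-2) differed by 0.58, 1.12, -0.10 and 0.42, and SPRYD3 by 0.84, 0.66, 0.34 and 1.04. None of these neighbours showed the range of KRT18.

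Beside CLDN4 on chromosome 7, WBSCR27 (METTL27 in RefSeq) had 15.2 and 19.7 normalised counts in clone 4, 64.6 and 50.7 for clone 10, 22.4 and 25.4 in clone 11, 23.4 and 25.1 for clone 12, and 8.19 and 11.6 in parental cells. Like CLDN4 it was highest in clone 10, but in clone 4 it lay above parental cells, where the mean of CLDN4 lay below them. Overlap between the transcripts of these 2 genes was not examined. WBSCR28 (TMEM270) had at most 0.82, and ELN (elastin), the third gene on that side, differed from parental cells by 1.26, 0.97, -0.12 and 0.15 in clones 4, 10, 11 and 12. On the CLDN3 side, ABHD11 differed by 0.74, 0.63, 1.38 and 1.06 in the same order. STX1A differed by 0.25, 0.04, 1.09 and 0.03, and WBSCR22 (BUD23) by 0.47, 0.31, 1.12 and 0.87.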
